A study of Mus musculus with 20 samples.

Results

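The genes described here are 8 that mouse liver uses to sense and handle glucose and fructose, chosen by name: Mlxipl, which encodes the transcription factor ChREBP, and Txnip, Arrdc4, Khk, Slc2a2, Gckr, Pfkfb1 and Fgf21. All 8 were found by their symbol among the 45306 genes of the expression table. Gene expression was measured in the liver of 20 mice on a C57BL/6 background, each giving 1 RNA-seq library, and the 4 groups Control, CE, Sirt2-/- and Sirt2-/-/CE had 5 mice each. Control and CE mice were wild type, and the Sirt2-/- and Sirt2-/-/CE mice carried a deletion in Sirt2, which encodes an NAD-dependent deacetylase, in every tissue and not in the liver alone. CE stands for chronic cold exposure, given as 3 h per day at 4 °C over 3 weeks as a model of metabolic stress, while the other mice stayed at 24 °C. All mice were 5 weeks old at the start and had free access to food, and no source used here says at which hour or how long after a meal the livers were taken. Groups were compared to ask how cold, the loss of Sirt2 and both together altered the RNA of these genes.

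A mouse had between 35499796 and 53917339 counted reads. Sirt2 RNA was lower in the mice labelled as carrying the deletion: its mean was 21.3 ± 1.00 FPKM (SD, n = 5) in Control and 12.1 ± 2.54 FPKM (SD, n = 5) in Sirt2-/-, and the ranges of 20.1 to 25.9 FPKM in the wild-type mice and 9.32 to 15.3 FPKM in the mice with the deletion did not overlap. A count over the whole gene also takes in exons outside the deletion, so it does not test the deleted part and cannot tell 1 deleted copy from both. By immunoblot, the authors report that livers of Sirt2-/- mice lacked the Sirt2 protein. FPKM is the number of fragments per kilobase of gene scaled to the depth of the library, so it can be set side by side between genes. The 6 hepatocyte markers summed to at least 41900 FPKM in every mouse. The 4 pancreatic islet markers Ins1, Ins2, Gcg and Iapp were at 0 in all mice, which matters here because Slc2a2 is also abundant in islets. The 4 Kupffer cell markers summed to 30 to 138 FPKM in the wild-type groups and 82.8 to 145 FPKM in the Sirt2-/- groups. A score of the circadian clock was the mean log2 CPM (counts scaled to library depth) of 5 genes of one arm minus that of 3 genes of the other. It was then centred on its mean over all mice, so 0 stands for that mean and not for equal arms. The centred score lay between 1.33 and 3.36 in Control, -4.52 and 2.42 in CE, -6.48 and 2.17 in Sirt2-/-, and -4.69 and 0.87 in Sirt2-/-/CE. Sums of 6 fasting genes and of 4 feeding genes overlapped between all groups, but their medians differed. The median fasting sum was 1520 FPKM in Control, 1550 in CE, 1980 in Sirt2-/- and 1530 in Sirt2-/-/CE. The median feeding sum was 190 FPKM in Control, 149 in CE, 121 in Sirt2-/- and 196 in Sirt2-/-/CE. Several of the genes below follow feeding or the time of day in mouse liver. Values from fits that hold the clock score are therefore given as well, while feeding state was not part of any fit. In bulk liver, fewer cells of a type and less RNA per cell cannot be told apart.

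Glucose enters and leaves the hepatocyte through GLUT2, the transporter that Slc2a2 encodes. Fructose is phosphorylated by ketohexokinase, the product of Khk, and both sugars give rise to phosphorylated intermediates that activate ChREBP. ChREBP binds DNA with its partner Mlx and raises transcription of genes of glycolysis, fructose breakdown and fatty acid synthesis, and among its best known targets are Txnip and Arrdc4, a pair of alpha-arrestins that limit glucose uptake. Gckr encodes a regulatory protein of hepatic glucose phosphorylation that responds to fructose 1-phosphate. Pfkfb1 encodes the liver form of the enzyme that makes and breaks down fructose 2,6-bisphosphate, a signal that favours glycolysis over gluconeogenesis. Fgf21 encodes a hormone that the liver secretes on fasting and on sugar intake.

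The DNA that ChREBP and Mlx bind is a pair of E-box-like half-sites with 5 bases between them. The windows shown are those of Txnip, because it was the only one of the 8 genes with an exact pair of half-sites, and of Arrdc4, Mlxipl and Fgf21, because they hold the palindromic E-box CACGTG. Khk holds it too, but much of its window lies inside the annotated gene and is not shown, whereas that of Arrdc4 reaches into the gene by a few bases. Each holds the 250 bases before a RefSeq transcription start on GRCm38.p6, in the 5′ to 3′ direction of the gene, and capitals mark the match.
Txnip, chr3:96557707-96557956, forward strand: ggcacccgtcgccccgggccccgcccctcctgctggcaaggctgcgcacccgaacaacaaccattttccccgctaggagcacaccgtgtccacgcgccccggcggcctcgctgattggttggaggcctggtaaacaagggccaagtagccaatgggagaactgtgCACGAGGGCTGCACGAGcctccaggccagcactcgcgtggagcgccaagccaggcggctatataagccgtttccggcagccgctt
Arrdc4, chr7:68749239-68749488, reverse strand: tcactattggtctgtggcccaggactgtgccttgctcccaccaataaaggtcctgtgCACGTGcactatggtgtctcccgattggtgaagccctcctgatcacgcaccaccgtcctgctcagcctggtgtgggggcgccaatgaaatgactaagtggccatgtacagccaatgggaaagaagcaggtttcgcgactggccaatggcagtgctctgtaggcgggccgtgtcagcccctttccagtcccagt
Mlxipl, chr5:135089640-135089889, forward strand: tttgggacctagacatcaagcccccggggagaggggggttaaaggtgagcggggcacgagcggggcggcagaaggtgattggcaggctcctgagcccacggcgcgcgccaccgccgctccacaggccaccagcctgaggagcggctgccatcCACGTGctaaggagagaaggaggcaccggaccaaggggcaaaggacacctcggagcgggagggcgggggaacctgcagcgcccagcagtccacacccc
Fgf21, chr7:45615491-45615740, reverse strand: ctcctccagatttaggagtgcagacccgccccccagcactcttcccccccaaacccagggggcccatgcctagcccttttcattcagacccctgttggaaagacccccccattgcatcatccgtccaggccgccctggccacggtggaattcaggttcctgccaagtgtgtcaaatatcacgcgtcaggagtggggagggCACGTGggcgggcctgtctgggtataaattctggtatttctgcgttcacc

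The motifs were searched on both strands of these windows: CACGTG, the spaced pair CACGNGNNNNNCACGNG, and CCAAT, the box that NF-Y binds. The letters of the pair were settled with the Txnip window in view, a CACGTG can form part of a pair, and a match is a description of the letters and not a binding site. The pair was found in the Txnip window at position -85, counted from the start site, and in 0.0518% of the 27025 mouse genes with a window. CACGTG was found at position -193 for Arrdc4, -98 for Mlxipl, -71 for Khk and -50 for Fgf21, that is in 4 of the 8 genes, against 6.86% of all genes. At least 1 CCAAT box was found for 6 of the 8 genes, with 6 in the window of Arrdc4, 2 each for Txnip and Slc2a2, and 1 in a window of Mlxipl and Gckr and in each of 2 windows of Pfkfb1, while 37.5% of all genes held at least 1.

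Levels were compared between the 8 genes on the FPKM scale, averaged over the 20 mice. Khk was highest with a mean of 211 FPKM, followed by Slc2a2 with 84.1, Gckr with 45.0, Mlxipl with 29.7, Txnip with 21.4, Pfkfb1 with 19.5, Arrdc4 with 2.21 and Fgf21 with 0.323 FPKM. The highest value was 1.55 times the lowest for Gckr and 22.4 times for Txnip, the smallest and the largest ratio among the 7 genes other than Fgf21, which was at 0 in 3 mice. The ranges of neighbours in this order overlapped over the 20 mice except those of Pfkfb1, at 11.2 FPKM and above, and Arrdc4, at 3.60 FPKM and below.

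**Figure D1:**
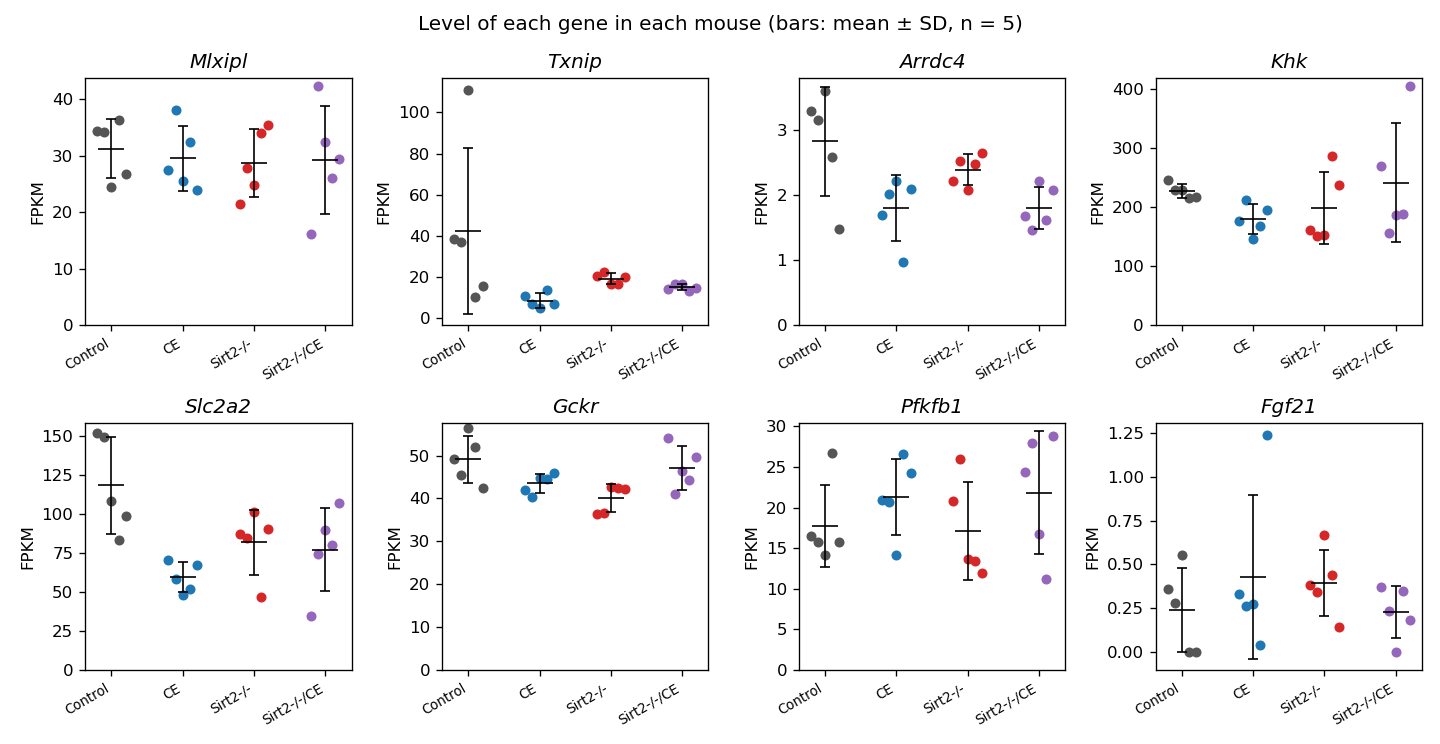
FPKM of each of the 8 genes (vertical axes, linear, each with its own scale) in the 4 groups (horizontal axes), with 1 point per mouse and black bars for the mean ± SD of 5 mice. Txnip spreads from 10.5 to 111 FPKM in Control and lies between 4.98 and 22.7 FPKM in all other mice.

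Mlxipl (ENSMUSG00000005373) lies on chromosome 5 from 135089890 to 135138382 of GRCm38, on the forward strand, and its counts were not split between the ChREBP isoforms that start at different first exons. Its level was 34.4, 34.3, 24.5, 36.4 and 26.7 FPKM in the 5 Control mice and 27.5, 38.2, 25.6, 32.5 and 23.9 FPKM in the CE mice. It was 21.4, 27.8, 24.9, 34.1 and 35.5 FPKM in Sirt2-/- and 16.1, 42.4, 32.4, 26.1 and 29.5 FPKM in Sirt2-/-/CE. The 4 groups overlapped, with means between 28.7 and 31.3 FPKM. Against Control the change on the log2 scale was -0.07 ± 0.18 (SE) in CE and -0.27 ± 0.18 (SE) in Sirt2-/-, with adjusted p of 0.951 and 0.499 by edgeR's quasi-likelihood test. With the clock score in the fit these were -0.16 and -0.42 (adjusted p = 0.807 and 0.692). Mlx, the DNA-binding partner of ChREBP, had a mean of 14.8 FPKM in Control, 17 in CE, 20.5 in Sirt2-/- and 19.1 in Sirt2-/-/CE. Its log2 fold change in Sirt2-/- against Control was 0.31 ± 0.16 (SE), with an adjusted p of 0.359 by edgeR. Among the 5 genes of the Mlx network 5 had a log2 fold change above 0 in CE, with a median of 0.26 against -0.01 over all genes tested. In Sirt2-/- against Control 3 of the 5 were above 0 and 2 below, with a median of 0.03 against 0.02 over all genes tested. Of the 5 genes, 0 passed the test in any comparison. Mxd4, a repressor that shares Mlx as a partner, was the other abundant member, with 13.9 FPKM in Control and 16.5 FPKM in CE.

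Txnip (ENSMUSG00000038393), spanning bases 96557957 to 96561883 of chromosome 3 (forward strand), encodes the thioredoxin-interacting protein and is read widely as a sensor of the glucose that enters a cell. The Control mice had 38.5, 36.9, 111, 10.5 and 15.7 FPKM. The CE mice had 10.7, 6.79, 4.98, 13.6 and 7.08 FPKM, so 3 of them lay below the lowest Control mouse and 2, at 10.7 and 13.6 FPKM, just above it. The Sirt2-/- mice had 20.8, 22.7, 16.5, 16.6 and 20 FPKM, and the Sirt2-/-/CE mice 14.3, 16.6, 16.6, 13.4 and 14.8 FPKM. Both Sirt2-/- groups were narrow, with a coefficient of variation of 14% and 9.46%, against 95% in Control, and both lay within the range of Control.

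For Txnip the log2 fold change was -2.33 ± 0.44 (SE) in CE against Control, with an unadjusted p of 3.25e-05 and an adjusted p of 0.0867 by edgeR. It was -1.30 ± 0.42 (SE) in Sirt2-/- (adjusted p = 0.139) and -1.57 ± 0.43 (SE) in Sirt2-/-/CE (adjusted p = 0.16), both against the same Control mice. All 5 CE mice were below the mean of Control on the log2 scale, as were all 5 mice of each Sirt2-/- group. Whether Txnip passed depended on the method and on single Control mice. DESeq2 gave an adjusted p of 5.08e-05 for CE, 0.0379 for Sirt2-/- and 0.0169 for Sirt2-/-/CE, and limma voom with sample weights gave 0.00721 for CE, 0.16 for Sirt2-/- (log2 fold change -0.79) and 0.0648 for Sirt2-/-/CE. Without Control replicate 4, the lowest Control mouse, edgeR's adjusted p was 0.00625 for CE, where 0.429% of all genes were called, 0.0424 for Sirt2-/- (1.31%) and 0.0342 for Sirt2-/-/CE (0.423%). Txnip was the only one of the 8 genes called in that fit, which also called it for cold averaged over genotypes (adjusted p = 0.0375, 0.101% of all genes) and called 0 of the 8 for genotype (0.227%), between the cold groups (0.0126%), for the interaction (0.0126%) and for cold in Sirt2-/- mice (0.0%). Without Control replicate 5 adjusted p was 0.0405 for CE (0.0189% of all genes), and 0 of the 8 were called in Sirt2-/- (0.284%), in Sirt2-/-/CE against Control (0.0821%) or against CE (0.0126%), and for genotype (0.189%). Without Control replicate 3, which had 111 FPKM, the log2 fold change was -1.54 for CE, -0.52 for Sirt2-/- and -0.78 for Sirt2-/-/CE, and 0 of these passed. With the clock score in the fit it was -2.31 (adjusted p = 0.154) for CE and -1.28 (adjusted p = 0.567) for Sirt2-/-. In the annotation 606 of the 3123 exon bases of Txnip are shared with Gm15441 on the other strand, whose counts were at most 2.68% of the counts of both in any mouse.

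Arrdc4 (ENSMUSG00000042659), on chromosome 7 from 68736995 to 68749241 on the reverse strand, encodes the alpha-arrestin closest to Txnip in its response to ChREBP. It had 3.30, 3.15, 3.60, 2.59 and 1.48 FPKM in Control and 1.69, 2.02, 2.22, 0.97 and 2.10 FPKM in CE. It had 2.21, 2.53, 2.08, 2.48 and 2.65 FPKM in Sirt2-/- and 1.67, 1.46, 2.22, 1.61 and 2.07 FPKM in Sirt2-/-/CE. Both cold groups lay below the 4 highest Control mice, and Control replicate 5 lay among the cold mice. The log2 fold change from Control was -0.72 ± 0.26 (SE) in CE, -0.51 ± 0.26 (SE) in Sirt2-/- and -0.80 ± 0.26 (SE) in Sirt2-/-/CE, with adjusted p of 0.30, 0.364 and 0.222 by edgeR. Limma voom called it in CE with an adjusted p of 0.0485. A fit with the clock score gave -0.62 in CE and -0.33 in Sirt2-/- (adjusted p = 0.411 and 0.944). The other 7 tested genes of the alpha-arrestin and thioredoxin list, led by the thioredoxins Txn1 with a mean of 113 FPKM and Txn2 with 108 FPKM, had a median of 0.03 on the log2 scale in both CE and Sirt2-/-, and 0 of the 7 passed in any comparison.

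Khk (ENSMUSG00000029162), at bases 30921431 to 30931248 of chromosome 5 (forward strand), begins the breakdown of fructose in the liver. The counts did not separate its isoforms A and C. Its level was 245, 229, 229, 215 and 216 FPKM in Control and 176, 211, 145, 168 and 195 FPKM in CE. On the FPKM scale every CE mouse thus lay below every Control mouse, as for 1.26% of all genes tested on that scale, but on the TMM-scaled log2 CPM scale of the test the groups overlapped, with 4 CE mice below all Control mice. Sirt2-/- mice had 161, 151, 152, 286 and 237 FPKM, and Sirt2-/-/CE mice had 269, 156, 186, 188 and 404 FPKM. In Sirt2-/- 3 mice lay below all Control mice and 1 above them, and in Sirt2-/-/CE 3 lay below and 2 above, with SDs of 60.9 and 101 FPKM against 12.2 FPKM in Control. The log2 fold change from Control was -0.33 ± 0.23 (SE) in CE (adjusted p = 0.67) and -0.38 ± 0.23 (SE) in Sirt2-/- (adjusted p = 0.473 by edgeR, 0.0369 by limma voom), and with the clock score -0.42 and -0.54 (adjusted p = 0.571 and 0.754). Of the 6 other genes of fructose uptake and breakdown 5 had values below 0 in CE, with a median of -0.18, and 0 passed in any comparison. Sord, which makes fructose from sorbitol, averaged 630 FPKM, with 671 in Control and 613 in CE.

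Slc2a2 (ENSMUSG00000027690), at bases 28697903 to 28731359 of chromosome 3 (forward strand), encodes GLUT2. The Control mice had 152, 149, 108, 83.3 and 98.6 FPKM. The CE mice had 70.5, 58.2, 48.3, 51.8 and 67.4 FPKM, so the groups did not overlap and the mean in CE was 59.2 ± 9.62 FPKM (SD, n = 5) against 118 ± 30.7 FPKM (SD, n = 5). Of all genes tested, 1.28% had a CE group that lay wholly below Control, and 3.04% had no overlap in either direction. The Sirt2-/- mice had 87.0, 84.6, 101, 46.4 and 90.4 FPKM and the Sirt2-/-/CE mice 34.6, 74.2, 89.4, 79.9 and 107 FPKM. These 2 groups overlapped with each other, with Control and with CE.

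For Slc2a2 the log2 fold change was -0.97 ± 0.24 (SE) in CE, with an unadjusted p of 0.000656 and an adjusted p of 0.171 by edgeR. DESeq2 gave an adjusted p of 0.0201 and limma voom one of 0.00366 for the same comparison. The value stayed between -1.07 and -0.87 when any 1 mouse was left out, and 0 of those 20 fits called it. Against Control the log2 fold change was -0.67 ± 0.24 (SE) in Sirt2-/- (adjusted p = 0.183 by edgeR, 0.0163 by limma voom) and -0.69 ± 0.24 (SE) in Sirt2-/-/CE (adjusted p = 0.27 by edgeR, 0.0246 by limma voom). With the clock score in the fit it was -0.83 (adjusted p = 0.248) for CE and -0.48 (adjusted p = 0.794) for Sirt2-/-.

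Gckr (ENSMUSG00000059434), at bases 31297443 to 31327314 of chromosome 5 (forward strand), had 49.3, 45.4, 56.5, 51.9 and 42.5 FPKM in Control and 42.0, 40.4, 44.7, 44.6 and 46.0 FPKM in CE. It had 36.3, 36.6, 42.6, 42.4 and 42.3 FPKM in Sirt2-/- and 54.2, 41.1, 46.5, 44.2 and 49.6 FPKM in Sirt2-/-/CE. On the log2 CPM scale every Sirt2-/- mouse was below every Control mouse, as was the case for 2.16% of all genes tested (3.61% without overlap in either direction), while on the FPKM scale 1 Sirt2-/- mouse with 42.6 FPKM stood above the lowest Control mouse with 42.5 FPKM. Its log2 fold change in Sirt2-/- was -0.45 ± 0.13 (SE), with an unadjusted p of 0.00216 and an adjusted p of 0.0882 by edgeR. DESeq2 and limma voom gave adjusted p of 0.0245 and 0.00899. When depth alone was used for scaling the value was -0.30 (adjusted p = 0.109), and with the clock score it was -0.42 (adjusted p = 0.453). In Sirt2-/-/CE the log2 fold change from Sirt2-/- was 0.33 ± 0.13 (SE), with all 5 mice above the Sirt2-/- mean and an adjusted p of 0.586. Of the 9 tested genes of glucose uptake and phosphorylation 0 passed in any comparison, and among them Slc37a4, the glucose 6-phosphate transporter, had 79.1 ± 6.86 FPKM (SD, n = 5) in Control, 68.8 ± 11.8 in CE and 108 ± 31.9 in Sirt2-/-.

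Pfkfb1 (ENSMUSG00000025271) lies on chromosome X from 150588229 to 150643878, on the forward strand. It had 16.5, 15.8, 14.2, 26.7 and 15.7 FPKM in Control and 20.9, 20.7, 14.2, 26.6 and 24.2 FPKM in CE. It had 20.8, 26.0, 13.7, 13.4 and 11.9 FPKM in Sirt2-/- and 24.4, 28, 16.8, 11.2 and 28.8 FPKM in Sirt2-/-/CE. The 4 groups overlapped, and Control replicate 4 was as high as the highest CE mouse. The log2 fold change from Control was 0.26 ± 0.28 (SE) in CE and -0.19 ± 0.28 (SE) in Sirt2-/-, with adjusted p of 0.808 for each. With the clock score they were 0.46 and 0.03, and the value in Sirt2-/- turned to 0.02 without Control replicate 4. Pfkfb1 shares 123 of its 4017 exon bases with Apex2 on the other strand, which had 11.2% to 24.5% of the counts of both, and whether reads were counted by strand is not given in the sources used here. Of the 8 other genes around fructose 2,6-bisphosphate, 0 passed in any comparison, and the most abundant of them, the gluconeogenic enzyme Fbp1, had 597 ± 37.1 FPKM (SD, n = 5) in Control and 591 ± 50.8 FPKM (SD, n = 5) in CE. Pfkl, the liver phosphofructokinase, averaged 9.96 FPKM.

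Fgf21 (ENSMUSG00000030827), on chromosome 7 from 45613886 to 45615490 on the reverse strand, was close to the limit of detection, with 262 counts in all 20 mice together. The Control mice had 20, 15, 24, 0 and 0 counts and the CE mice 14, 10, 11, 2 and 43 counts. The Sirt2-/- mice had 16, 13, 24, 16 and 6 counts and the Sirt2-/-/CE mice 16, 10, 0, 14 and 8 counts. Each group thus held mice with few or no counts beside mice with more, and the groups overlapped. The log2 fold change was 0.83 ± 0.95 (SE) in CE and 0.60 ± 0.95 (SE) in Sirt2-/- against Control, with adjusted p of 0.829 and 0.823, and a standard error of that size leaves even a 2-fold change undetectable in these mice. Without CE replicate 10, the mouse with 43 counts, the value in CE was -0.05, and with the clock score the values were 1.20 and 1.18. Among the 10 genes of the list of Fgf21 regulators and receptors, 1 passed in Sirt2-/- against Control (0.89% of all genes), in Sirt2-/-/CE against Control (0.122%) and for genotype (0.186%), and 0 passed in the other 5 comparisons: the 1 was Fgfr1, one of the receptors that bind FGF21 with the co-receptor Klb. The regulators with the highest levels were Creb3l3 with a mean of 115 FPKM and Atf4 with 41.6 FPKM, and their log2 fold changes in Sirt2-/- were 0.14 and -0.07.

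Fgfr1 fell in both groups with the deletion, and was low in most CE mice too. It had 2.44, 3.01, 3.35, 2.20 and 3.15 FPKM in Control and 1.24, 0.949, 1.24, 1.13 and 1.53 FPKM in Sirt2-/-. The Sirt2-/-/CE mice had 0.541, 1.55, 0.815, 0.934 and 0.717 FPKM, and neither group overlapped with Control, where 2.16% and 1.26% of all genes tested lay wholly below Control on the log2 CPM scale. The CE mice had 1.62, 1.63, 2.35, 0.871 and 0.742 FPKM, 4 of them below every Control mouse, with a log2 fold change of -0.98 ± 0.27 (SE) and an adjusted p of 0.193 by edgeR. Against CE the log2 fold change in Sirt2-/-/CE was -0.65 ± 0.27 (SE), with an adjusted p of 0.71. The log2 fold change was -1.40 ± 0.27 (SE) in Sirt2-/- (adjusted p = 0.0317), -1.63 ± 0.27 (SE) in Sirt2-/-/CE (adjusted p = 0.0279) and -1.03 ± 0.19 (SE) for genotype averaged over cold (adjusted p = 0.0281), all by edgeR. The values with the clock score in the fit were -1.11, -1.38 and -0.84 (adjusted p = 0.314, 0.134 and 0.236). The call in Sirt2-/- was lost in 6 of the 20 fits without 1 mouse, namely without Control replicate 1, 2 or 3 or Sirt2-/- replicate 12, 14 or 15. The call in Sirt2-/-/CE was lost without Control replicate 1, 2 or 3 or Sirt2-/-/CE replicate 16, 19 or 20, with adjusted p up to 0.114, and that in Sirt2-/- reached 0.103. For genotype the call was lost in 8 of 20 fits, with adjusted p up to 0.0699, without CE replicate 7, Sirt2-/- replicate 11, 12, 14 or 15 or Sirt2-/-/CE replicate 16, 18 or 19. The markers of Kupffer cells and sinusoidal endothelium had median sums of 73.2 and 37.4 FPKM in Control, 54 and 25.3 FPKM in CE, 110 and 65.1 FPKM in Sirt2-/-, and 129 and 61.9 FPKM in Sirt2-/-/CE, and their part in these values was not tested.

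Across comparisons, 0 of the 8 genes had an adjusted p under 0.05 by edgeR. Of all 15616 genes tested, 0.0064% passed in CE against Control, 0.89% in Sirt2-/- against Control, 0.122% in Sirt2-/-/CE against Control, 0.0128% in Sirt2-/-/CE against CE and 0.0% in Sirt2-/-/CE against Sirt2-/-. At an unadjusted p under 0.05 there were 3 of the 8 in CE against Control (Txnip, Slc2a2 and Arrdc4; 10.7% of all genes), 3 in Sirt2-/- against Control (Txnip, Slc2a2 and Gckr; 14.9%), and 3 in Sirt2-/-/CE against Control (Txnip, Slc2a2 and Arrdc4; 11.2%). There was 1 of the 8, Gckr, in Sirt2-/-/CE against Sirt2-/- (7.25% of all genes) and 0 in Sirt2-/-/CE against CE (6.09%). DESeq2 called 2 of the 8 in CE, where it called 1.2% of all genes, 2 in Sirt2-/- (3.89%), 1 in Sirt2-/-/CE against Control (1.52%), and 0 in Sirt2-/-/CE against CE (0.199%) or Sirt2-/- (0.0448%). Limma voom called 3 in CE (3.46% of all genes), 3 in Sirt2-/- (5.8%) and 1 in Sirt2-/-/CE against Control (2.18%), and 0 in Sirt2-/-/CE against CE (0.0128%) or Sirt2-/- (0.0%). Over the 8 genes the median was -0.24 on the log2 scale for CE and -0.41 for Sirt2-/-, with 6 and 7 of the 8 below 0, against medians over all genes of -0.01 and 0.02. These comparisons share the Control mice.

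**Figure D2:**
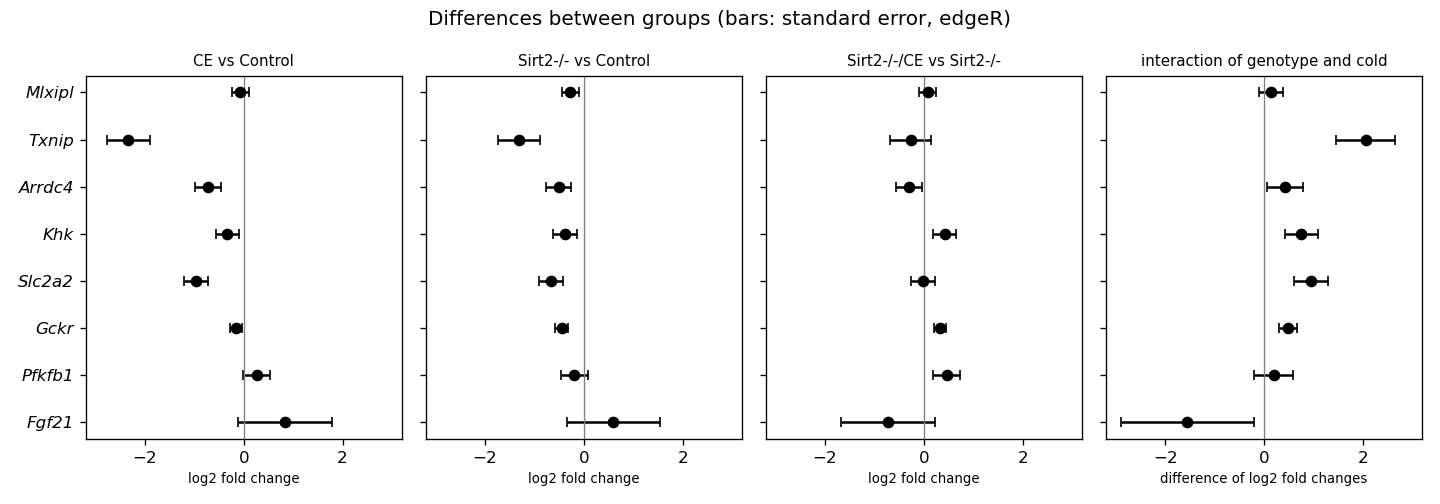
Log2 fold change of each gene (horizontal axis) with its standard error from edgeR, for CE against Control, Sirt2-/- against Control, Sirt2-/-/CE against Sirt2-/-, and the interaction, which is the effect of cold in Sirt2-/- mice minus that in wild-type mice. Txnip lies at -2.33 and Slc2a2 at -0.97 in CE, and at -0.27 and -0.02 in cold Sirt2-/- mice.

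The effect of cold was then set side by side in the 2 genotypes. In wild-type mice cold went with a log2 fold change of -2.33 for Txnip and -0.97 for Slc2a2. In Sirt2-/- mice it was -0.27 ± 0.42 (SE) for Txnip and -0.02 ± 0.24 (SE) for Slc2a2. The interaction was 2.06 ± 0.60 (SE) for Txnip, 0.96 ± 0.34 (SE) for Slc2a2, 0.49 ± 0.18 (SE) for Gckr and 0.76 ± 0.33 (SE) for Khk, all above 0. Their unadjusted p were 0.00247, 0.0106, 0.0129 and 0.0333 and their adjusted p 0.382, 0.457, 0.475 and 0.55 by edgeR, and 0 of the 8 genes passed, as did 0.0% of all genes. The value for Txnip was 1.28 without Control replicate 3 and that for Khk 0.47 without Sirt2-/-/CE replicate 20. At an unadjusted p under 0.05 these 4 of the 8 stood beside 8.34% of all genes, and DESeq2 and limma voom called 0 of the 8 as well (0.263% and 0.0% of all genes). A difference between the genotypes in their response to cold was thus not shown for any of the 8. Between the cold groups, Txnip was higher in Sirt2-/-/CE than in CE by a log2 fold change of 0.76 ± 0.42 (SE) with 4 of 5 mice above every CE mouse, and Slc2a2 by 0.29 ± 0.24 (SE), with adjusted p of 0.882 and 0.935.

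Averaged over genotypes, the effect of cold was -1.30 ± 0.30 (SE) on the log2 scale for Txnip, -0.50 ± 0.17 (SE) for Slc2a2 and -0.51 ± 0.18 (SE) for Arrdc4, with adjusted p of 0.228, 0.36 and 0.393 by edgeR. These 3 of the 8 had an unadjusted p under 0.05, as had 9.48% of all genes, and 0.0% of all genes passed after adjustment. DESeq2 and limma voom called Txnip, with adjusted p of 0.00772 and 0.0461, where they called 0.487% and 0.307% of all genes. Averaged over cold, the log2 fold change for genotype ran from -0.29 for Arrdc4 to -0.0027 for Khk, and without 1 mouse it turned for Khk in 10 of 20 fits, for Fgf21 in 2 and for Pfkfb1 and Txnip in 1 each. Among the 8 genes 1, Gckr at -0.20 ± 0.09 (SE), had an unadjusted p under 0.05, with 13.8% of all genes below that value and 0.186% passing after adjustment. DESeq2 and limma voom called 0 of the 8 for genotype, and 2.03% and 1.68% of all genes. The value of Txnip for genotype turned from -0.27 to 0.12 without Control replicate 3.

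**Figure D3:**
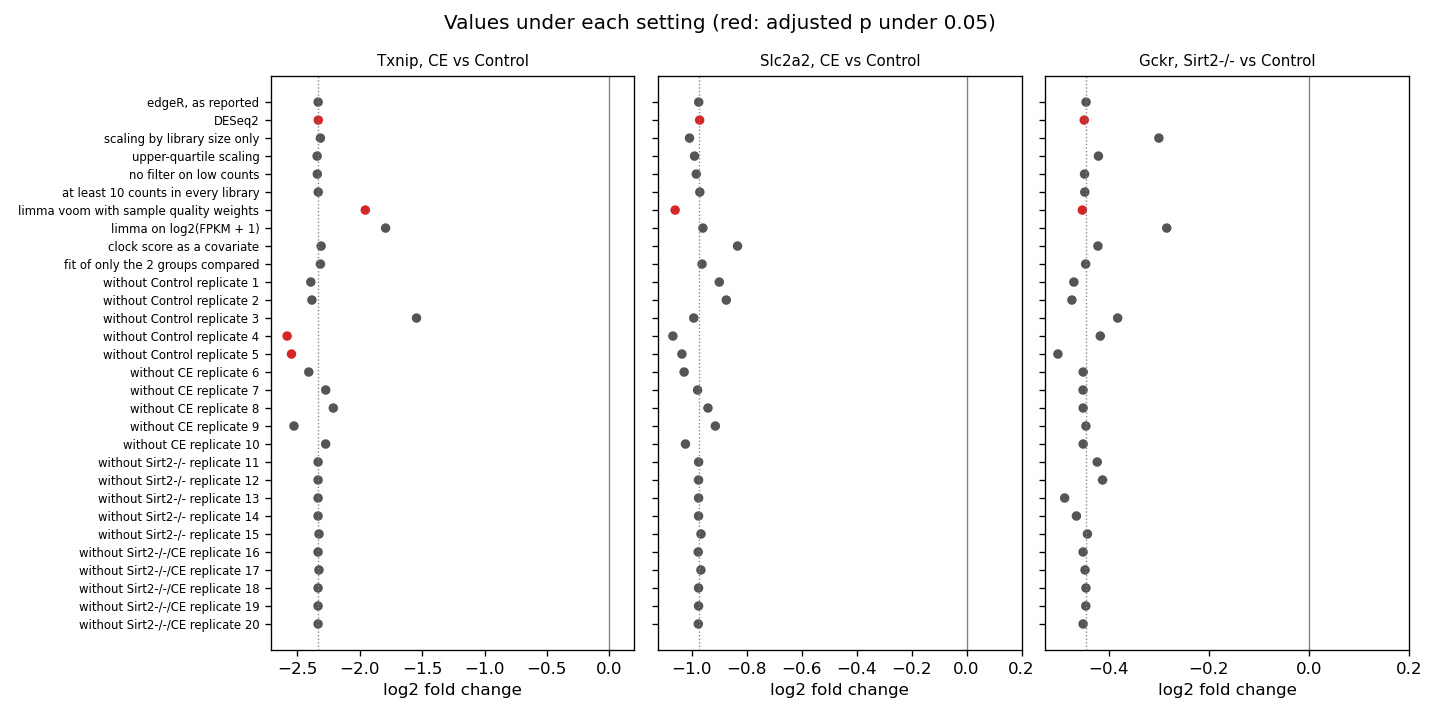
Log2 fold change (horizontal axes, each with its own scale) of Txnip and Slc2a2 in CE and of Gckr in Sirt2-/-, against Control, under the setting named on the vertical axis, with red points where the adjusted p is under 0.05. All values lie below 0, and Txnip moves to -1.54 without Control replicate 3.

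To ask which of the 8 genes varied together from mouse to mouse, the log2 CPM of each pair was correlated over the 20 mice. Of the 28 pairs, 0 passed Benjamini-Hochberg adjustment over the pairs by Pearson's r or by Spearman's rho. The closest pair was Khk and Gckr, with r = 0.61 (permutation p = 0.00384, adjusted p = 0.104) and rho = 0.63 (permutation p = 0.00341, adjusted p = 0.064). It was 0.56 without the 2 mice farthest from the median of Khk and 0.54 when each group was centred on its mean. Txnip and Slc2a2 had r = 0.58 (permutation p = 0.00769, adjusted p = 0.104) and rho = 0.62 (permutation p = 0.00457, adjusted p = 0.064), with r = 0.56 without the 2 farthest mice. Within groups that relation was weaker, with r = 0.21 on centred values. Arrdc4 and Slc2a2 had r = 0.56 (permutation p = 0.0112, adjusted p = 0.104) and rho = 0.45 (permutation p = 0.0469, adjusted p = 0.328), with r = 0.27 on centred values. Txnip and Arrdc4, both targets of ChREBP, had r = 0.50 (permutation p = 0.0258, adjusted p = 0.181) and rho = 0.33 (permutation p = 0.156, adjusted p = 0.653). Their r was 0.40 without the 2 farthest mice and 0.18 on centred values. Mlxipl had r = -0.08 (permutation p = 0.719) and rho = -0.18 (permutation p = 0.437) with Txnip, and r = 0.20 (permutation p = 0.399) and rho = 0.18 (permutation p = 0.444) with Arrdc4, with adjusted p of at least 0.724. With Fgf21, which had few counts, Mlxipl had r = -0.38 (permutation p = 0.101, adjusted p = 0.567) and rho = -0.55 (permutation p = 0.013, adjusted p = 0.121).

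**Figure D4:**
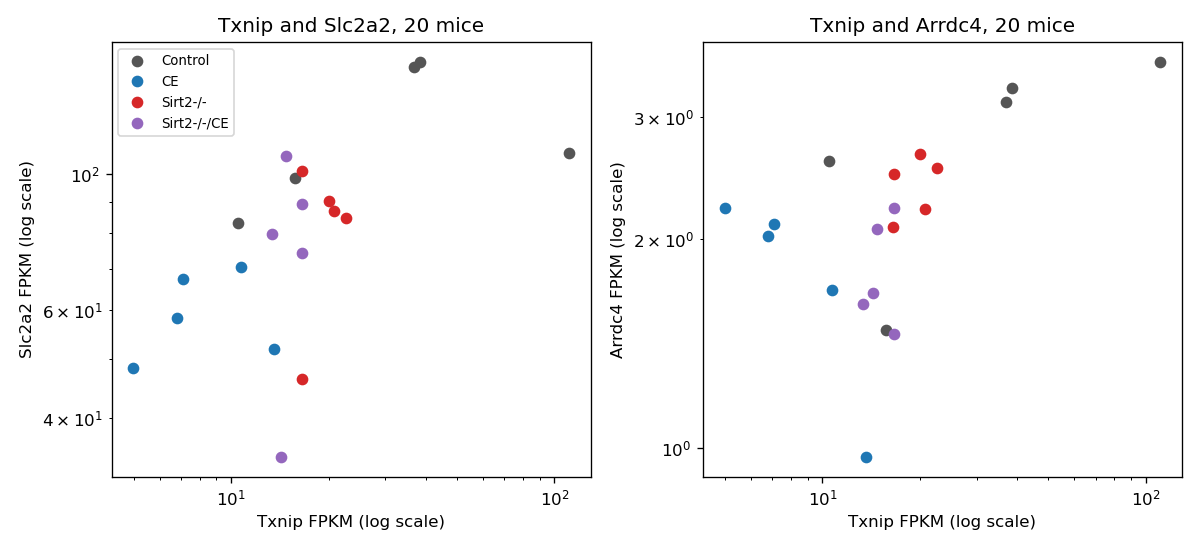
FPKM of Slc2a2 (left) and Arrdc4 (right) against that of Txnip in the 20 mice, on log scales, with 1 point per mouse coloured by group. The 3 Control mice with the highest Txnip, 36.9 FPKM and above, have the highest Arrdc4, and the CE mice lie at the low end of Txnip, at 13.6 FPKM and below.

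The genes whose log2 CPM was most like that of each of the 8 over the 20 mice were sought among the 10591 tested genes that averaged 1 FPKM or more. For Txnip they were Il1b, a cytokine (r = 0.83), and Srrm1 (r = 0.78). For Arrdc4 they were Shpk, a kinase of the sugar sedoheptulose (r = 0.78), and Klf10, itself a carbohydrate-responsive gene (r = 0.76). For Slc2a2 they were Actn1 and Cul4a (r = 0.89 and 0.88). For Gckr they were Haao and Qdpr (r = 0.89 and 0.88), enzymes of tryptophan breakdown and of biopterin recycling. For Khk they were BC089597 and BC021614 (r = 0.88 and 0.87), for Pfkfb1 Rangap1 and Ccnyl1 (r = 0.82 and 0.81), and for Mlxipl Klhl9, Mfap1a and Synrg (r = 0.84, 0.83 and 0.80). For Fgf21 the values were lower, with 0.76 for Agpat9, 0.67 for Gm8430 and 0.64 for Ptplad1. The points of each pair share libraries and group means, and the highest of 10591 values is high by selection.

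Outside the 8 genes, 17 others that are known to follow carbohydrate intake were listed, most of them in glycolysis and fatty acid synthesis. In Sirt2-/- against Control 15 of the 17 had values below 0, with a median log2 fold change of -1.10 against 0.02 over all genes, 10 of the 17 had an unadjusted p under 0.05 (14.9% of all genes), and 2 passed after adjustment (0.89% of all genes). In CE 14 of the 17 were below 0 with a median of -0.39, 3 had an unadjusted p under 0.05 (10.7% of all genes), and 0 passed (0.0064% of all genes). In Sirt2-/-/CE against Control 12 were below 0 with a median of -0.32, 3 had an unadjusted p under 0.05 (11.2% of all genes), and 2 passed (0.122% of all genes). The interaction was above 0 for 15 of the 17 with a median of 1.20, and 12 had an unadjusted p under 0.05 (8.34% of all genes), but 0 passed. Sirt2-/- also had the lowest median sum of the feeding genes and the highest median sum of the fasting genes among the groups. The part of feeding state in the values of the 17 genes was not tested, and the feeding genes Fasn and Pnpla3 are themselves among the 17.

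Scd1, the desaturase that makes monounsaturated fatty acids, fell in Sirt2-/-. It had 1270, 1250, 1850, 470 and 676 FPKM in Control and 301, 169, 128, 25.4 and 140 FPKM in Sirt2-/-, without overlap. Of all genes tested, 2.16% lay wholly below Control in Sirt2-/- on the log2 CPM scale. Its mean was 634 FPKM in CE and 617 FPKM in Sirt2-/-/CE, with log2 fold changes from Control of -0.80 and -0.91 (adjusted p = 0.653 and 0.572 by edgeR). From Sirt2-/- to Sirt2-/-/CE the log2 fold change of Scd1 was 2.08 ± 0.56 (SE) (adjusted p = 0.503 by edgeR). Its log2 fold change in Sirt2-/- was -2.99 ± 0.58 (SE) (adjusted p = 0.0311), and with the clock score it was -2.84 (adjusted p = 0.173). Rgs16, an inhibitor of G protein signalling that hepatocytes induce on carbohydrate intake, fell in Sirt2-/- and in Sirt2-/-/CE. It had 67.2, 38.4, 67.6, 5.38 and 10.1 FPKM in Control, 6.12, 1.42, 3.49, 1.5 and 1.10 FPKM in Sirt2-/- and 0.653, 1.57, 0.997, 0.89 and 4 FPKM in Sirt2-/-/CE. Its log2 fold change was -3.89 ± 0.78 (SE) (adjusted p = 0.034) and -4.58 ± 0.81 (SE) (adjusted p = 0.0378), and -3.97 ± 0.78 (SE) in CE (adjusted p = 0.0867). Klf10 fell in Sirt2-/-/CE, by 2.18 on the log2 scale (adjusted p = 0.0435). Its log2 fold change was -1.79 ± 0.42 (SE) in CE (adjusted p = 0.158) and -1.59 ± 0.41 (SE) in Sirt2-/- (adjusted p = 0.0654) against the same Control mice, and Sirt2-/-/CE was not told apart from CE (adjusted p = 0.952) or Sirt2-/- (adjusted p = 0.823). Klf10 had 12.4, 13.8, 28.9, 4.95 and 2.64 FPKM in Control and 2.94, 2.64, 3.57, 2.69 and 2.72 FPKM in Sirt2-/-/CE. With the clock score the log2 fold changes were -3.17 and -3.82 for Rgs16 (adjusted p = 0.227 and 0.114) and -2.04 for Klf10 (adjusted p = 0.179). In fits of only the groups compared the log2 fold change was -2.99 for Scd1 (adjusted p = 0.0628), -3.89 and -4.59 for Rgs16 (0.0679 and 0.085) and -2.19 for Klf10 (0.15), and the call of Klf10 was also lost with scaling by library size (0.0612), without a filter (0.0593) and on log2(FPKM + 1) (0.13). The calls of Scd1 and Rgs16 in Sirt2-/- were each lost in 6 of the 20 fits without 1 mouse, those without Control replicate 1, 2 or 3 or Sirt2-/- replicate 12, 14 or 15. Their adjusted p then reached 0.103 and 0.107. The call of Rgs16 in Sirt2-/-/CE was lost in 9 of 20 (adjusted p up to 0.114), without Control replicate 1, 2 or 3, CE replicate 9, Sirt2-/- replicate 12 or Sirt2-/-/CE replicate 16, 17, 18 or 19. That of Klf10 was lost in 17 of 20 (adjusted p up to 0.147), in all but those without Control replicate 4 or 5 or Sirt2-/- replicate 13. Thrsp, which regulates fat synthesis, was next to Scd1 in level, with 469 ± 76.4 FPKM (SD, n = 5) in Control and 127 ± 126 FPKM (SD, n = 5) in Sirt2-/- (adjusted p = 0.228), and with 375 ± 342 FPKM in CE and 569 ± 582 FPKM in Sirt2-/-/CE.

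**Figure D5:**
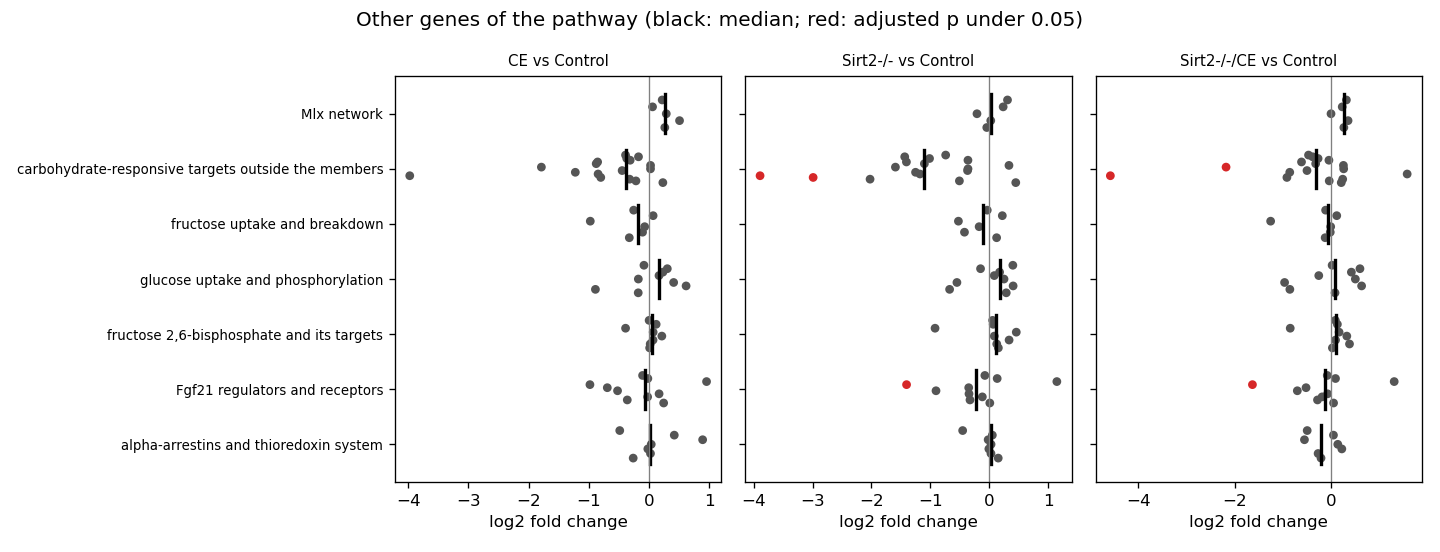
Log2 fold change of the 62 tested genes of 7 lists (rows) against Control in CE, Sirt2-/- and Sirt2-/-/CE, with 1 point per gene, a black line at the median of each list and red points where edgeR's adjusted p is under 0.05. The carbohydrate-responsive targets have a median of -1.10 in Sirt2-/-, and the red points are Scd1, Rgs16, Klf10 and Fgfr1.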

How the data were processed

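RNA-seq counts of reads per gene and FPKM values of 20 livers were deposited by the authors in 1 table. The counts are whole numbers without normalization, and the FPKM values of the authors are scaled to gene length and depth. Libraries were made from mRNA enriched with oligo(dT) and primed with random hexamers, and sequenced on a NovaSeq instrument. The submitters' processing notes name the build mm10. The aligner, the counting tool, its annotation and its handling of strand and multi-mapping reads are not given in the sources used here. Each column was matched to a mouse by its label, with 0 columns of other samples, and 9 lines without a gene were left out.

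Counts were analysed in R 4.3.3 with edgeR 4.0.16 (TMM scaling, filterByExpr at its count settings of 10 per library and 15 in total, quasi-likelihood F test, two-sided) in 1 fit of all 20 libraries. The filter left 15616 genes, all 8 members among them, and p-values were adjusted over these by Benjamini-Hochberg, with a call at an adjusted p under 0.05. The SE of a log2 fold change is its size divided by the square root of F. Alternatives used DESeq2 1.42.0, limma 3.58.1, other scalings and filters, the clock score as a further term and fits without 1 mouse at a time. Correlations used 100000 permutations of log2 CPM (prior count 2). The tests were also run on simulated counts, and the outcome is not reported here. In those counts each gene had the same dispersion in all groups, so they do not bear on a gene such as Txnip. The depth was 35499796 to 53917339 counts per mouse, and Fgf21 rests on 0 to 43 counts per mouse. Each library is 1 mouse as far as the labels tell. Positions are from GENCODE vM21 on GRCm38, the same build as mm10, and start sites from RefSeq (GRCm38.p6). Transcripts were searched with BLAST+ 2.17.0 for matches of at least 95% over 150 bases, which were found between Txnip and Gm15441 and between Mlxipl and Gm43500, the genes that overlap them on the other strand. Figures were drawn with matplotlib 3.10.9.

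The 8 members, the lists of pathway and marker genes, and the tests were chosen with earlier results of these data known. The genes named outside the 8 were those of the 7 pathway lists with a call, the 2 with the highest mean FPKM in each list, and the 2 (3 for Fgf21 and Mlxipl) with the highest correlation to each member. Some genes that this rule names are not reported here.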

Additional observations from a re-analysis of the deposited data

Results flagged for a closer look

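In 32 groups of 5 mice (the 8 genes in the 4 groups), 3 had a highest mouse whose gap to the next, divided by the range of the group, was above 0.71, Dixon's 95% critical value for 5 samples. Chance gives about 1 in 20 groups. Txnip in Control replicate 3 was 111 FPKM, with 38.5 FPKM in the next mouse and a ratio of 0.72. Pfkfb1 in Control replicate 4 was 26.7 FPKM, with 16.5 FPKM in the next mouse and a ratio of 0.82. Fgf21 in CE replicate 10 was 1.24 FPKM, with 0.33 FPKM in the next mouse and a ratio of 0.76.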

How the results depend on the processing

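No paired analysis was possible because each of the 20 mice has a number of its own and no number is shared between groups. The number of the 8 genes called was 0 by edgeR in all 8 comparisons. DESeq2 called 2 in CE against Control, 2 in Sirt2-/- against Control, 1 in Sirt2-/-/CE against Control and 1 for cold averaged over genotypes, and limma voom with sample quality weights called 3, 3, 1 and 1. Leaving out 1 mouse gave 0 to 1 in each of these 4 comparisons and 0 in the other 4, and the 1 was Txnip. The other settings called 0 in each comparison. The share of all genes that these settings called, the fit with the clock score among them, is not given here. Their counts of 0 thus cannot be set against such a share. Of 1113 alternative values of the 39 log2 fold changes of members that were followed, 1064 had the same direction and the same side of the threshold, 19 newly passed it and 30 turned. Pfkfb1 in Sirt2-/- against Control was 0.16 by limma voom and 0.03 with the clock score, and from -0.39 to 0.022 without 1 mouse. Slc2a2 in Sirt2-/-/CE against Sirt2-/- ran from -0.19 to 0.16 and Fgf21 in CE against Control from -0.047 to 1.40 without 1 mouse. For genotype averaged over cold, values above 0 were found on log2(FPKM + 1) for Txnip (0.079), Khk (0.050) and Fgf21 (0.0038), with scaling by library size for Khk (0.10) and Pfkfb1 (0.018), with upper-quartile scaling for Khk (0.038), and with the clock score for Pfkfb1 (0.015) and Fgf21 (0.24). Without 1 mouse the genotype value ran from -0.40 to 0.12 for Txnip, -0.15 to 0.053 for Khk, -0.19 to 0.016 for Pfkfb1 and -0.33 to 0.26 for Fgf21. The cause of these turns was not tested. The order of the 4 group means was the same on the CPM scale for 6 of the 8 genes, with neighbours exchanged for Arrdc4 and Khk. Pairs that passed in the correlations numbered 0 on log2(FPKM + 1) and 0 on group-centred values. All 7 calls of pathway genes were lost with the clock score, with log2 fold changes that kept their direction (Scd1 -2.84, Rgs16 -3.17 and -3.82, Klf10 -2.04, Fgfr1 -1.11, -1.38 and -0.84). Fits of only the groups compared, made for 6 of the 7, lost 4 calls, and that of Klf10 was lost with 3 further settings.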

Other observations

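The spread among the 5 Control mice differed between the 17 carbohydrate-responsive genes, which was looked at after their values were seen. The coefficient of variation of FPKM in Control had a median of 33.8% over the 17 genes and ran from 15.5% to 82.3%, the value of Klf10. Rgs16 had 79.2%, Scd1 had 49.5% and Thrsp had 16.3%. Among the 8 genes of glucose and fructose sensing, Txnip had 95% and Khk 5.38% in the same mice. No test was made of these differences.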
